A study of Mus musculus with 9 samples.

Results

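The genes followed here are 7 regulators and channels of the heart's pacemaker and conduction tissue: Tbx2, Tbx3, Tbx18, Shox2, Isl1, Hcn2 and Hcn4. They were taken by name, and every probe set that the platform annotation assigned to 1 of these symbols was used. That gave 13 of the 45101 probe sets on the array, and these covered 6 of the 7 genes. Tbx3 had 5 probe sets, Tbx18, Shox2 and Isl1 had 2 each, and Tbx2 and Hcn2 had 1 each. No probe set used here carried the name of Hcn4, the main pacemaker channel of the sinus node, so its level was not analysed here.

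Levels were compared between 3 kinds of mouse sample, with 3 biological replicates of each and 1 expression array per sample. MEF were fibroblasts taken from C57BL/6 embryos at embryonic day 13.5. CiCM were cells made from MEF with 6 small molecules: CHIR99021 at 10 µM, RepSox at 10 µM, forskolin at 50 µM, VPA at 0.5 mM, Parnate at 5 µM and TTNPB at 1 µM. Clusters that were beating were picked for RNA on day 24, so a CiCM sample is a set of chosen pieces of a culture and can hold several cell types. CM were cardiomyocytes isolated from mouse hearts, and the labels give neither the age and strain of these mice nor the chambers used. The labels call the samples biological replicates without naming separate cultures or animals, so p-values measure the spread between these samples.

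The sinus node starts each heartbeat. There the T-box repressors Tbx2 and Tbx3 hold down genes of working muscle, such as the peptide gene Nppa and the connexin genes Gja1 and Gja5. Tbx18 builds the head of the node, Shox2 holds back the working muscle factor Nkx2-5, and Isl1 keeps nodal cells in their state. HCN channels, which open on hyperpolarization and bind cyclic AMP, carry the pacemaker current. None of these genes belongs to the node alone: Tbx3 and Shox2 also act in limb mesenchyme, Tbx18 in the epicardium, Isl1 in motor neurons and Hcn2 in neurons and heart ventricle.

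Promoters of 5 of the 7 genes were at hand in RefSeq (GRCm38.p6), without those of Tbx2 and Tbx3. The 250 bases before the annotated start are printed for Shox2 and Isl1, both higher in CiCM than in CM, for Hcn2, lower in CiCM than in CM, and for Nppa, a gene that Tbx2 and Tbx3 repress. Shox2 lies at chr3:66981772-66982021 on the minus strand, Isl1 at chr13:116309689-116309938 on the minus strand, Hcn2 at chr10:79716384-79716633 on the plus strand and Nppa at chr4:148000472-148000721 on the plus strand. Capitals mark matches, on either strand, to the T-box core GGTGTG, the cyclic AMP response core TGACG, the CCAAT box or the TATAAA box. Each line runs 5′ to 3′ on the gene's own strand.
Shox2: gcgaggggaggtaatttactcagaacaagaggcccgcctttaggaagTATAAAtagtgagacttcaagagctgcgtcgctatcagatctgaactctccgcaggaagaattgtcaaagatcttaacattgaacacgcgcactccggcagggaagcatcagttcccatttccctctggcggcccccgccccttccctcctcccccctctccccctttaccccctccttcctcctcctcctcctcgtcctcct
Isl1: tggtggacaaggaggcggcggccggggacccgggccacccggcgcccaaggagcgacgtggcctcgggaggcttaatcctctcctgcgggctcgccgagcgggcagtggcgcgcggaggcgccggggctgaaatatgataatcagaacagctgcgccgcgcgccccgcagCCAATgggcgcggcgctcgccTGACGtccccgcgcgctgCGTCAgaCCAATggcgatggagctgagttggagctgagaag
Hcn2: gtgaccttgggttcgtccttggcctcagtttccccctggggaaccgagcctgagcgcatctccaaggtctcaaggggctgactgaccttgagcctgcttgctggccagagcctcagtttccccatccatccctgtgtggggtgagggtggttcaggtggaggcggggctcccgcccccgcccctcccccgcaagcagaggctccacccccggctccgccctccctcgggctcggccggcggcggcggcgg
Nppa: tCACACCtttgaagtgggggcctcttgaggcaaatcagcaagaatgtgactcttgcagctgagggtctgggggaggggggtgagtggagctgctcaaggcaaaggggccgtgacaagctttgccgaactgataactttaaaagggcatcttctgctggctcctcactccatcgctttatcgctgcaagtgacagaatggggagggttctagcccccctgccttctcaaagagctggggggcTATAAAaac
The Isl1 window held 2 matches to TGACG, 59 and 41 bases before the start, and 2 to CCAAT. The Shox2 window held 1 TATAAA match, 203 bases before the start. The Nppa window held a T-box core on the reverse strand, 249 bases before the start, and a TATAAA match 9 bases before it. The Hcn2 window held none of the 4 motifs. These matches did not overlap each other. Of all 32851 promoter windows of the same length, 16.3% held GGTGTG, 17.8% TGACG, 33.8% CCAAT and 12.4% TATAAA on either strand. A match is a string of letters, not a measured binding site.

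Levels are given as the deposited log2 signal, so a difference of 1 is a doubling. The median of all values on the 9 arrays was 6.58, and signals under that line are called dim below. Where a gene had several probe sets, the one with the highest mean over the 9 arrays stood for it. A gene was called different between 2 kinds of sample when limma's adjusted p was under 0.05 and the log2 difference was at least 1. All 6 measured genes were among the 12559 tested, because each was at or above the line in at least 1 kind of sample. Isl1 passed only through CiCM, Hcn2 only through CM, and Tbx2 through CiCM and CM. Without that filter the counts of called genes, 3, 3 and 4 in the comparisons below, were the same, where 17.3%, 32.4% and 26.1% of all 18193 genes were called.

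Array medians were 6.37 to 6.53 in MEF, 6.41 to 6.53 in CiCM and 6.75 to 6.85 in CM, and arrays of a kind correlated at 0.971 to 0.975, 0.965 to 0.969 and 0.930 to 0.953. Defining markers of each label were checked. All 10 markers of fibroblasts and mesenchyme were at or above the line in MEF, all 10 in CiCM and 9 in CM, with means of 12.67 to 12.71, 12.88 to 12.95 and 10.77 to 11.02. All 7 ventricular markers were at or above it in CM, 3 in CiCM and 0 in MEF. The 3 in CiCM were Myl2, Myl3 and Myh7, while Irx4, Hey2, Kcnip2 and Pln were under the line. CiCM were also at or above it for 12 of 12 skeletal muscle markers, with a mean of 13.43 to 13.53 over the list, against 3.66 to 3.87 in MEF and 5.07 to 5.50 in CM. The part of that muscle RNA in the results on CiCM, among them the levels of Myl2, Myl3 and Myh7, was not tested. All 8 endothelial markers were at or above the line in CM, 1 in CiCM and 2 in MEF. All 8 macrophage markers were at or above it in MEF, 3 in CiCM and 7 in CM, with means of 10.18 to 10.22, 6.41 to 6.88 and 8.92 to 9.71. All 8 macrophage markers were called lower in CiCM than in MEF (median difference -4.13), and the part of this shift in the differences between CiCM and MEF was not tested. In such bulk RNA, more cells of a type and more RNA per cell cannot be told apart.

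**Figure D1:**
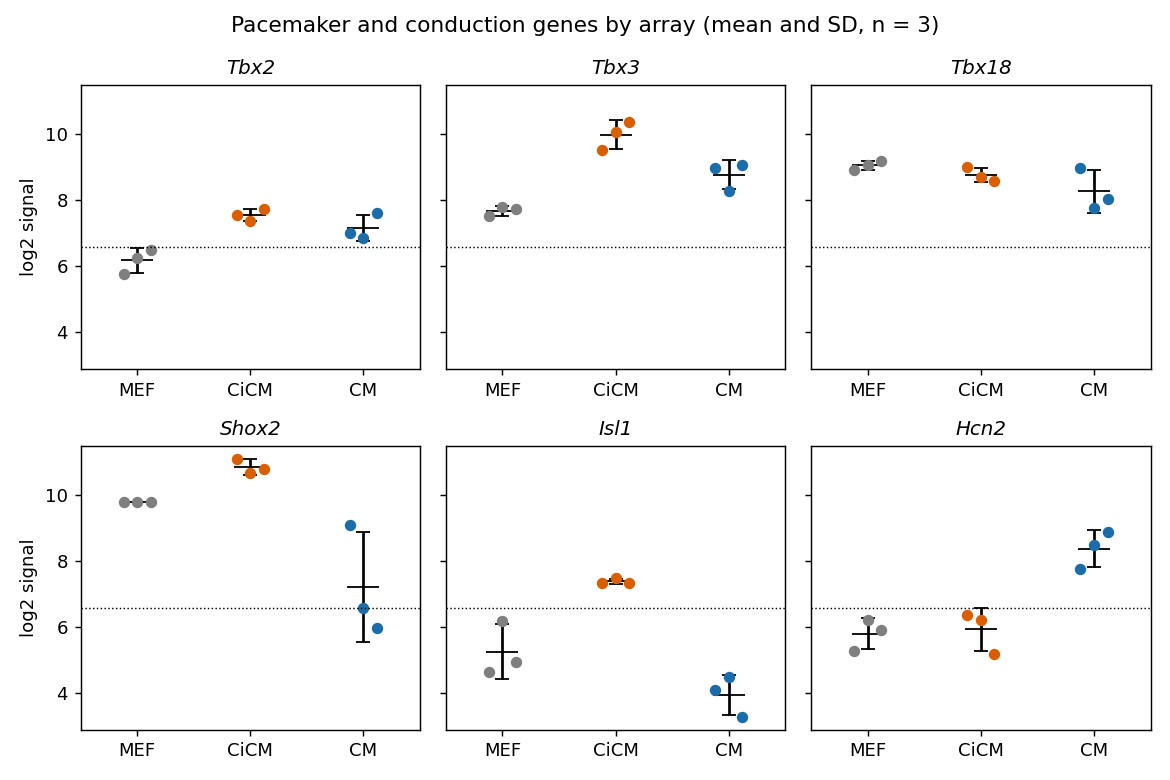
Log2 signal of the 6 measured genes on each array (points), with the mean and SD of 3 arrays per kind of sample; the dotted line is the median of all values, 6.58. Tbx3 and Isl1 were highest on all 3 CiCM arrays, Hcn2 on all 3 CM arrays, and Shox2 ran from 5.97 to 9.09 within CM.

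In CiCM the repressors Tbx3 and Tbx2 and the nodal factor Isl1 were higher than in MEF, while Hcn2 was not called and stayed dim. Those 3 of the 6 measured genes were called, all higher, and none was lower. Over all tested genes 23.8% were called in this comparison, 11.6% higher and 12.2% lower. Of the 6 genes, 4 did not overlap between the CiCM and MEF arrays, against 68.5% of all tested genes. The median difference in CiCM against MEF was 1.22 over the 6 genes and -0.03 over all tested genes. Over the 6 genes it was 0.10 in CM against MEF and 0.85 in CiCM against CM. The genes were chosen with earlier results of these data known, so these medians only describe them. In CM against MEF, Tbx3 and Hcn2 were called higher and Shox2 lower, where 43.9% of all tested genes were called (22.1% higher, 21.8% lower). In CiCM against CM, Tbx3, Shox2 and Isl1 were called higher and Hcn2 lower, where 35.5% of all tested genes were called (16.5% higher, 19.0% lower). Groups did not overlap for 5 of the 6 genes in CM against MEF and for 4 in CiCM against CM, against 75.2% and 67.9% of all tested genes. The comparisons share samples, so they are not separate evidence.

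**Figure D2:**
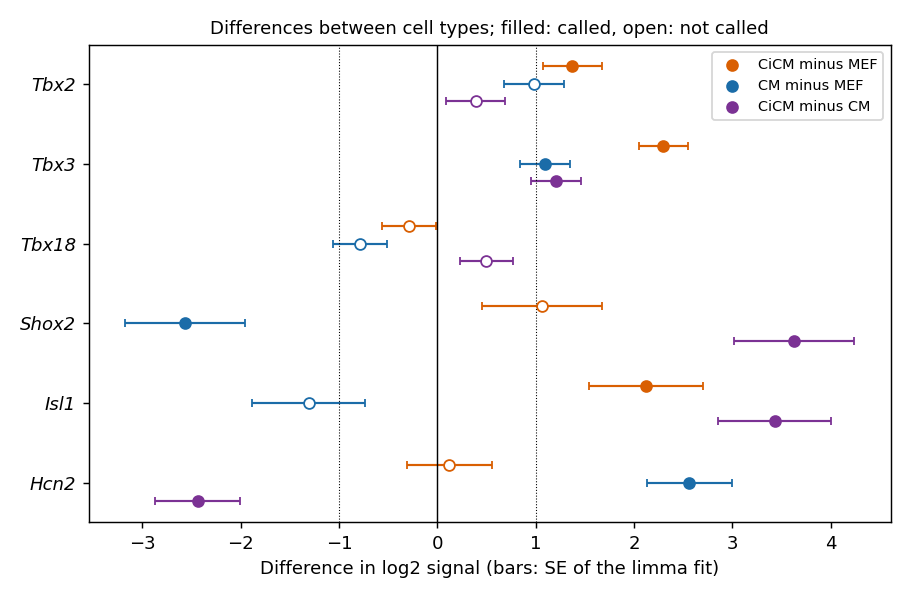
Differences in log2 signal between kinds of sample for the 6 measured genes; bars are the SE of the limma fit, filled points were called and dotted lines mark a difference of 1. Shox2 and Isl1 stand furthest to the right for CiCM minus CM, at 3.63 and 3.43, and Hcn2 furthest to the left, at -2.44.

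Tbx3 (Entrez Gene 21386) maintains the nodal program by repressing genes of working muscle. Its brightest probe set, 1437479_x_at, read 7.51, 7.78 and 7.74 in MEF, 9.50, 10.06 and 10.36 in CiCM, and 8.96, 8.28 and 9.07 in CM. All CiCM arrays lay above all CM arrays, and these above all MEF arrays. The means were 7.68 ± 0.15, 9.98 ± 0.44 and 8.77 ± 0.43 (SD, n = 3). Tbx3 was higher in CiCM than in MEF by 2.30 ± 0.25 (SE, limma adjusted p = 3.01e-05), a 4.92-fold difference. It was higher in CiCM than in CM by 1.21 ± 0.25 (limma adjusted p = 0.00171), a call that ended without CM replicate 2, where the difference was 0.96. CM exceeded MEF by 1.09 ± 0.25 (limma adjusted p = 0.00264).

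The rise of Tbx3 in CiCM over MEF appeared on both bright probe sets, but the CM level depended on the probe set. Probe set 1448029_at, nearly as bright over the 9 arrays (8.79 against 8.81), read 8.45, 8.29 and 8.22 in MEF, 9.63, 9.96 and 10.29 in CiCM, and 8.22, 7.45 and 8.61 in CM. There CiCM stood above both other kinds without overlap, while MEF and CM overlapped. Its differences were 1.64 for CiCM minus MEF (limma adjusted p = 3.81e-04), 1.87 for CiCM minus CM (limma adjusted p = 8.51e-05) and -0.23 for CM minus MEF (limma adjusted p = 0.538). The suffix x in the name of the first probe set marks probes that may match other transcripts. The other 3 probe sets, 1439567_at, 1444594_at and 1445757_at, were dim on all 9 arrays, and all 3 had a CiCM mean under the CM mean. The last of them was called higher in CM than in MEF (2.35, limma adjusted p = 0.0260). Its CiCM minus MEF difference was 2.03 (limma adjusted p = 0.0723). The CM over MEF call of the first probe set also ended under other settings: the difference was 0.73 with arrays centred on their medians and 0.29 with arrays levelled on their hybridisation controls. It also ended without CM replicate 1 (1.00, just under the minimum) or CM replicate 3 (0.95).

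Tbx2 (Entrez Gene 21385) represses working muscle genes in the atrioventricular canal and node. Its only probe set, 1422545_at, read 5.76, 6.26 and 6.50 in MEF, 7.54, 7.38 and 7.73 in CiCM, and 7.02, 6.86 and 7.59 in CM. All MEF arrays were dim, and the CiCM and CM arrays overlapped with each other. The means were 6.18 ± 0.38, 7.55 ± 0.17 and 7.16 ± 0.39 (SD, n = 3). CiCM exceeded MEF by 1.37 ± 0.30 (SE, limma adjusted p = 0.00319), a 2.59-fold difference. With 32 added to the linear signals, which shrinks differences between dim values, it was 1.07 and still called. The CM minus MEF difference of 0.98 passed the adjusted p (limma adjusted p = 0.0136) but fell short of the minimum of 1, and it reached 1 and was called without CM replicate 1, CM replicate 2, MEF replicate 2 or MEF replicate 3. CiCM minus CM was 0.39 ± 0.30 (limma adjusted p = 0.275).

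Shox2 (Entrez Gene 20429), the homeobox factor that holds back Nkx2-5 in the sinus node, was at a high signal in MEF already. Probe set 1438042_at read 9.77, 9.77 and 9.79 in MEF, 11.09, 10.64 and 10.78 in CiCM, and 9.09, 6.58 and 5.97 in CM. The CiCM arrays lay above the MEF arrays and these above the CM arrays, with no overlap. The means were 9.78 ± 0.01, 10.84 ± 0.23 and 7.21 ± 1.65 (SD, n = 3). Shox2 was higher in CiCM than in CM by 3.63 ± 0.61 (SE, limma adjusted p = 3.98e-04), a 12.4-fold difference. It was lower in CM than in MEF, with a difference of -2.57 ± 0.61 (limma adjusted p = 0.00320). CiCM minus MEF was 1.06 ± 0.61 and was not called (limma adjusted p = 0.169), since 1 estimate of spread served all 9 arrays and the CM arrays spread widely. That difference was called when MEF and CiCM alone were fitted (limma adjusted p = 2.04e-05) and without CM replicate 1 (limma adjusted p = 3.47e-04), with the value unchanged at 1.06.

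The dimmer Shox2 probe set, 1420559_a_at, ran the same way with more spread. It read 6.29, 7.55 and 7.10 in MEF, 7.73, 7.52 and 7.65 in CiCM, and 6.47, 6.19 and 1.63 in CM. MEF overlapped with both other kinds, and CiCM stood above all CM arrays. Only its CiCM minus CM difference, 2.87, was called (limma adjusted p = 0.0372). Its CM minus MEF difference was -2.22 (limma adjusted p = 0.0930).

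Isl1 (Entrez Gene 16392), a LIM homeobox factor of cardiac progenitors and of the sinus node, was above the line in CiCM alone. Probe set 1422720_at read 4.63, 6.19 and 4.95 in MEF, 7.34, 7.48 and 7.32 in CiCM, and 4.08, 4.48 and 3.29 in CM. The 3 CiCM arrays agreed within 0.09 (SD) and were above every other array. The means were 5.26 ± 0.82, 7.38 ± 0.09 and 3.95 ± 0.61 (SD, n = 3). CiCM exceeded MEF by 2.12 ± 0.58 (SE, limma adjusted p = 0.0106) and CM by 3.43 ± 0.58 (limma adjusted p = 4.09e-04). Because MEF and CM were dim, these sizes depend on the scale, and with 32 added they were 1.46 and 2.05, both called. CM minus MEF was -1.31 ± 0.58 (limma adjusted p = 0.0640).

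The other Isl1 probe set, 1450723_at, had almost the same mean over the 9 arrays (5.52 against 5.53) and gave larger differences. It read 5.71, 5.19 and 5.90 in MEF, 8.61, 8.93 and 9.19 in CiCM, and 3.66, 1.78 and 0.70 in CM. The 3 kinds of sample did not overlap. CiCM minus MEF was 3.31 (limma adjusted p = 0.00325), CiCM minus CM 6.86 (limma adjusted p = 6.22e-06) and CM minus MEF -3.55 (limma adjusted p = 0.00107). Whether Isl1 was lower in CM than in MEF thus depended on the probe set, and the lower values are dim on both.

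Tbx18 (Entrez Gene 76365), which marks the head of the sinus node and the epicardium, had a mean above the line in all 3 kinds of sample and was not called in any comparison. Probe set 1429974_at read 8.91, 9.05 and 9.19 in MEF, 8.998, 8.71 and 8.58 in CiCM, and 8.98, 7.77 and 8.03 in CM. The 3 kinds of sample overlapped. The means were 9.05 ± 0.14, 8.76 ± 0.22 and 8.26 ± 0.64 (SD, n = 3). CiCM minus MEF was -0.29 ± 0.27 (SE, limma adjusted p = 0.401) and CM minus MEF -0.79 ± 0.27 (limma adjusted p = 0.0244, under the minimum of 1). Probe set 1449871_at read 7.66, 7.55 and 7.75 in MEF, 6.83, 6.68 and 7.08 in CiCM, and 7.48, 6.48 and 5.29 in CM. All its MEF arrays were above the others, and CM minus MEF, -1.24, was called there (limma adjusted p = 0.0417). Its CiCM minus MEF difference was -0.79 (limma adjusted p = 0.238).

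**Figure D3:**
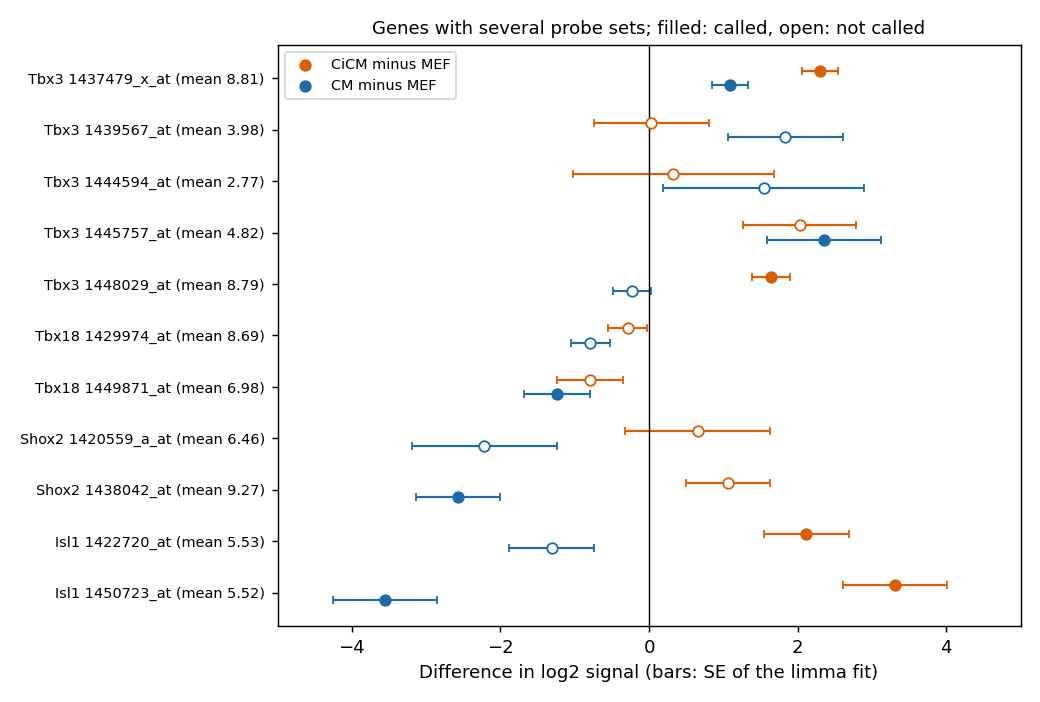
Differences of CiCM and of CM from MEF for each probe set of the 4 genes with several, in log2 signal; bars are the SE of the limma fit, filled points were called, and the mean over the 9 arrays stands beside each name. CiCM minus MEF was called on the 2 bright Tbx3 probe sets and on both of Isl1, and CM minus MEF of Tbx3 ran from -0.23 to 2.35.

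Hcn2 (Entrez Gene 15166), a pacemaker channel subunit, was the 1 measured gene above the line only in CM. Probe set 1421154_at read 5.29, 6.22 and 5.89 in MEF, 6.37, 6.21 and 5.19 in CiCM, and 7.75, 8.48 and 8.86 in CM. MEF and CiCM were dim and overlapped, and every CM array lay above both. The means were 5.80 ± 0.48, 5.93 ± 0.64 and 8.36 ± 0.56 (SD, n = 3). CM exceeded MEF by 2.56 ± 0.43 (SE, limma adjusted p = 3.21e-04), a 5.90-fold difference, and CiCM was lower than CM, with a difference of -2.44 ± 0.43 (limma adjusted p = 5.76e-04). CiCM minus MEF was 0.12 ± 0.43 (limma adjusted p = 0.834), which at this signal does not show that the levels were equal. Hcn3, the other family member measured, was dim in all 3 kinds of sample, at 2.83, 2.64 and 3.21.

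Counted over all 13 probe sets without a filter, 5 were called higher and 0 lower in CiCM against MEF. Of all 45037 probe sets 14.8% were called there, 7.34% higher and 7.48% lower. In CM against MEF 3 were called higher and 3 lower, where 29.1% of all were called (15.7% higher, 13.4% lower). In CiCM against CM 6 were called higher and 1 lower, where 22.8% of all were called (9.80% higher, 13.0% lower).

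Within CM, replicate 1 was apart from the other arrays in Shox2 and Tbx18. Its Shox2 signal was 9.09, against 6.58 and 5.97, and its Tbx18 signal 8.98, against 7.77 and 8.03. On the brightest probe sets of the other 4 genes this was not so: its Tbx3, Tbx2 and Isl1 values lay between those of the other CM arrays, and its Hcn2 signal was the lowest of the 3. On the other Isl1 probe set, whose CM values are all dim, replicate 1 was the highest, at 3.66 against 1.78 and 0.70. On the dimmer probe sets of Shox2 and Tbx18 replicate 1 was again the highest, but the widest gap for Shox2 was that of replicate 3, at 1.63. Its mean over 10 atrial markers was 12.79, against 9.14 and 7.50, and that over 9 epicardial markers 9.12, against 6.89 and 6.15. Ventricular markers were alike on the 3 arrays, at 11.78 to 12.15, and so were endothelial markers, at 10.61 to 10.72. In the same order of replicates the atrial genes Sln and Myl7 read 14.95, 8.14 and 2.97 and 15.05, 9.25 and 5.98. The part of atrial and epicardial RNA in the Shox2 and Tbx18 values was not tested.

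Without CM replicate 1 the mean of CM was 6.27 for Shox2 and 7.90 for Tbx18. Shox2 was then lower in CM than in MEF by a difference of -3.50 (limma adjusted p = 4.50e-08) and higher in CiCM than in CM by 4.57 (limma adjusted p = 1.16e-08). Tbx18 was called lower in CM than in MEF, at -1.15 (limma adjusted p = 1.64e-04). The called genes in CiCM against MEF then numbered 4, with Shox2 added to Tbx2, Tbx3 and Isl1.

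**Figure D4:**
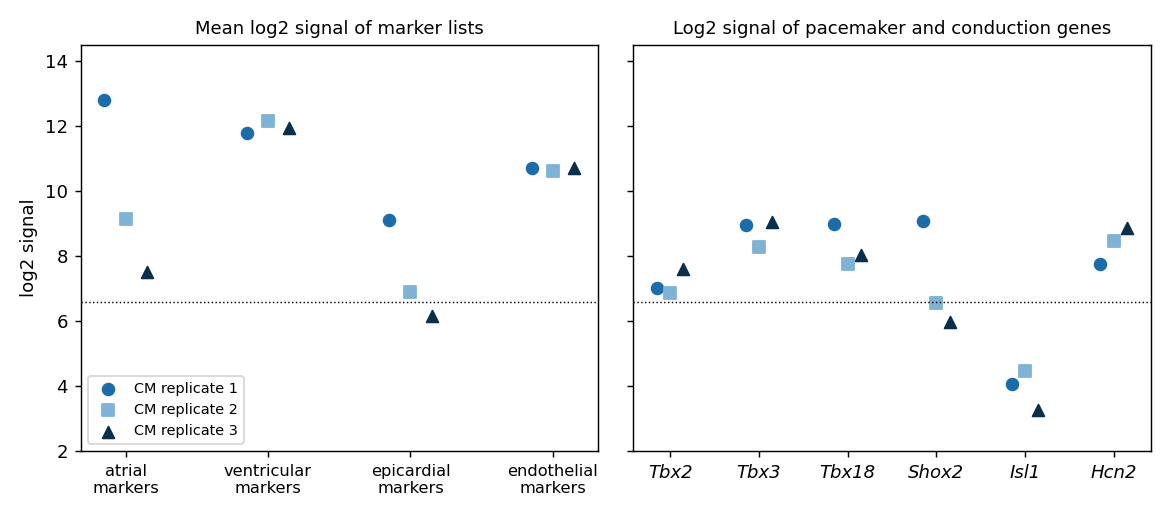
Mean log2 signal of 4 marker lists (left) and log2 signal of the 6 measured genes (right) on each of the 3 CM arrays; the dotted line is 6.58. Replicate 1 was highest in atrial and epicardial markers, at 12.79 and 9.12, and in Shox2 and Tbx18.

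Some of the genes have other homes, so markers of those tissues are given beside them. Of 10 limb bud mesenchyme markers, 3 were at or above the line in MEF, 6 in CiCM and 2 in CM, with means of 6.44 to 7.11, 7.37 to 7.74 and 4.92 to 5.89. The summed linear signal of that list ran otherwise, at 10290 to 10541 in MEF, 5562 to 6007 in CiCM and 2011 to 2243 in CM. Epicardial markers averaged 6.83 to 7.02 in MEF and 6.66 to 7.43 in CiCM. Of 8 neuron and neural crest markers, 3 were at or above the line in MEF, 3 in CiCM and 2 in CM, with Stmn2 at 8.16, 8.58 and 8.41 and Tubb3 at 10.06, 8.93 and 5.65. Elavl3, Elavl4, Snap25 and Prph were dim in all 3. Of 10 atrial markers, 6 were at or above it in CiCM and 4 in MEF, and Myl7, Bmp10 and Kcna5 were dim in both. In CiCM and MEF the atrial light chain Myl4 was at 14.58 and 7.10, a called difference of 7.48. Sln was at 7.93 and 4.68 and Stard10 at 10.11 and 8.40, and neither was called (limma adjusted p = 0.235 and 0.0723). Of 9 atrial markers tested in CiCM against MEF, 1 was called higher and 1, Kcna5, lower (-3.00). The part of skeletal muscle RNA in these atrial markers was not tested. The part of limb bud, epicardial, neural and atrial cells in the levels of Shox2, Tbx3, Tbx18 and Isl1 was not tested.

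Working muscle genes that are kept low in nodal cells were mostly high in CM and lower in CiCM, apart from Gja5 and Kcnj2. The part of Tbx2 and Tbx3 in these levels was not tested. Of 6 tested genes of this kind, 6 rose in CM over MEF (median 6.09), 2 rose in CiCM over MEF (median 1.18), and 5 fell in CiCM against CM (median -4.07), or 3 with arrays levelled on hybridisation controls. All-gene medians were -0.03 in each comparison. Nppa, which encodes atrial natriuretic peptide, read 3.07, 5.85 and 5.13 in MEF, 6.48, 6.54 and 6.89 in CiCM, and 15.24, 12.50 and 12.05 in CM. Its CiCM arrays were above the MEF arrays and far below the CM arrays. Nppa was lower in CiCM than in CM, with a difference of -6.63 (limma adjusted p = 4.57e-05). Gja1, the main connexin of the ventricle, was at 12.68 in MEF, 13.09 in CiCM and 14.37 in CM, and was lower in CiCM than in CM (-1.28, limma adjusted p = 7.63e-06), a call lost when arrays were levelled on hybridisation controls. Gja5, a connexin of fast conduction, was dim in all kinds by their means and untested with the filter, and read 6.92, 5.64 and 6.15 in CiCM, 5.27, 3.50 and 1.90 in CM and at most 1.65 in MEF. Without the filter its CiCM minus MEF difference was 4.90 (limma adjusted p = 0.00144), and Gja5 was called higher in CiCM than in CM (2.68, limma adjusted p = 0.0350), against the direction of the rest of the list. The tested genes of this list called higher in CiCM than in MEF were Smpx (9.22), a small muscle protein also made in skeletal muscle, and the potassium channel gene Kcnj12 (2.56).

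Channels and calcium handling proteins of pacemaker cells were mostly lower in CiCM than in CM, as Hcn2 was. Of 15 tested, 10 rose in CM over MEF (median 2.70), 3 rose in CiCM over MEF (median 0.13), and in CiCM against CM 9 were lower and 1 higher (median -3.15). The 3 that rose in CiCM were Atp2a2 (3.94), the calcium pump of the sarcoplasmic reticulum in heart and slow skeletal muscle, Kcnq1 (2.09) and Kcnh2 (1.06), potassium channels of repolarization. Kcnh2 was not called with 32 added, with either rescaling of the arrays, or without MEF replicate 1 or 3. Ryr2, the cardiac calcium release channel, was 0.13 apart between CiCM and MEF (limma adjusted p = 0.794) and lower in CiCM than in CM by a difference of -8.95. Kcnj5, a subunit of the acetylcholine-gated potassium channel, was lower by -6.73, and Cacna1c, the L-type calcium channel, by -3.15. Cacna1g, a T-type calcium channel of nodal cells, was the 1 tested gene of this list called higher in CiCM than in CM (1.24, limma adjusted p = 0.00165).

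Cyclic AMP is what forskolin raises and what HCN channels bind. Of 15 tested genes of that pathway and of autonomic input, 9 rose in CM over MEF (median 1.79) and 4 in CiCM over MEF (median 0.21). In CiCM against CM 6 were lower (median -0.59). With arrays levelled on hybridisation controls CM against MEF gave 7 higher and 1 lower (median 0.98). CiCM against MEF then gave 4 and 1 (median -0.01), and CiCM against CM 1 and 5 (median -0.02). In the deposited scale the 4 that rose in CiCM over MEF were the cyclic AMP-binding membrane proteins Popdc3 (6.74), Popdc2 (3.36) and Bves (2.69) and the protein kinase A subunit Prkaca (1.72). Those 4 also rose in CM over MEF, by 5.77, 6.44, 3.04 and 1.88, and Popdc proteins are made in skeletal muscle too. The cyclase genes Adcy5 and Adcy6 were lower in CiCM than in CM (-3.45 and -1.90), as was Rgs6 (-5.77), which ends the vagal signal.

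Conduction regulators, connexins and markers split between the kinds of sample. Of 11 tested, 2 rose and 1 fell in CiCM against MEF (median 0.16), 6 rose and 1 fell in CM against MEF (median 1.52; 4 and 3 with arrays levelled on hybridisation controls), and in CiCM against CM 2 were higher and 6 lower (median -1.93). Irx3, a factor of the fast conduction network, was at 9.38 ± 0.09 in MEF, 10.63 ± 0.12 in CiCM and 10.90 ± 0.40 in CM (SD, n = 3). It rose by 1.25 in CiCM (limma adjusted p = 1.65e-04), and its relative Irx5 by 1.30. Gjc1, a connexin of nodal cells, fell in CiCM against MEF by 2.83 (limma adjusted p = 2.72e-07) and was lower than in CM too (-2.43). Nkx2-5, the working muscle factor that Shox2 holds back, was at 6.17 in MEF, 6.32 in CiCM and 10.26 in CM. It was lower in CiCM than in CM by a difference of -3.94 (limma adjusted p = 1.33e-06), where Shox2 was higher. Its CiCM minus MEF difference was 0.16 and was not called (limma adjusted p = 0.692). The part of Shox2 in the Nkx2-5 level was not tested. Igfbp5 (2.40) and Id2 (1.56) were the tested genes of this list called higher in CiCM than in CM.

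**Figure D5:**
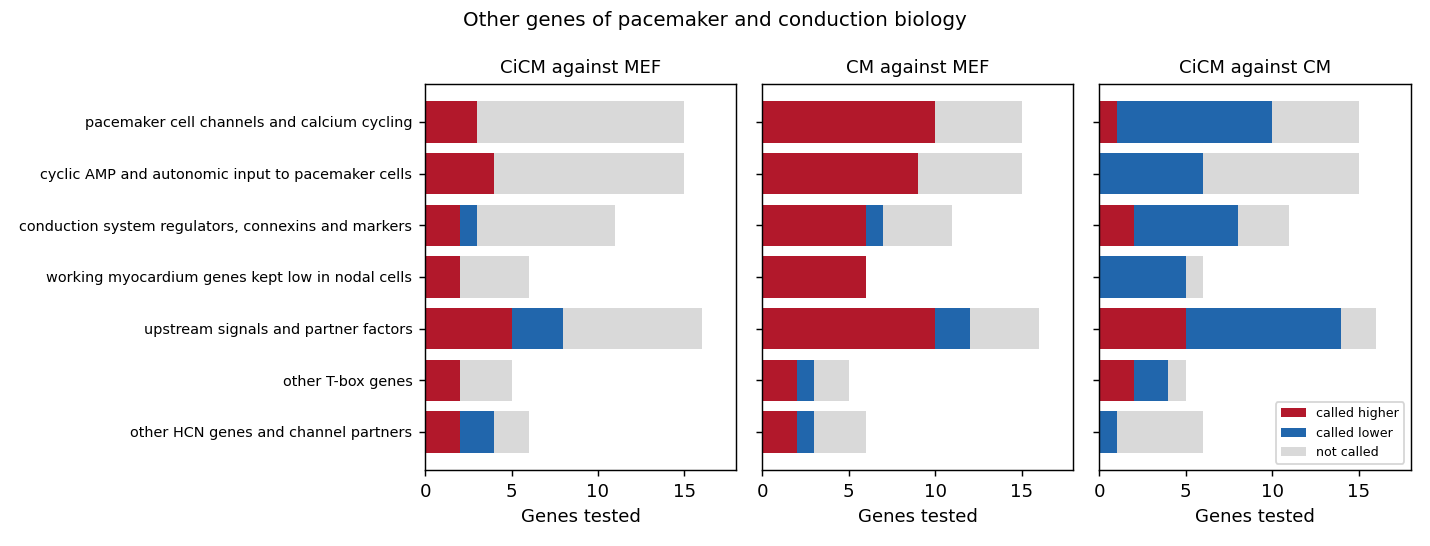
Number of tested genes in each of 7 lists around the pacemaker genes that were called higher (red), called lower (blue) or not called (grey) in each comparison. In CiCM against CM more genes were called lower than higher in 6 of the 7 lists, with 2 against 2 among other T-box genes. Over all tested genes 19.0% were called lower there and 16.5% higher. In that comparison 9 of 15 cyclic AMP genes and 5 of 6 HCN partners were not called. The HCN partners gave 0 higher and 1 lower, but 1 and 1 with 32 added or without CM replicate 1. They gave 2 and 1 with arrays centred on their medians, and 4 and 1 with arrays levelled on hybridisation controls. Some genes, among them Hopx, Rgs6, Nkx2-5 and Tbx5, stand in more than 1 list, so the lists are not separate evidence.

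Upstream signals and partner factors moved in both directions. Of 16 tested, 5 rose and 3 fell in CiCM against MEF (median -0.25; 3 and 1 with 32 added), 10 rose and 2 fell in CM against MEF (median 1.79; 8 and 5 with arrays levelled on hybridisation controls, 9 and 4 without CM replicate 1), and in CiCM against CM 5 were higher and 9 lower (median -1.79). In CiCM over MEF the rises were led by Mef2c (5.27), a muscle factor of heart and skeletal muscle, and Rarb (4.97), a retinoic acid receptor. Both also rose in CM over MEF, by 3.09 and 3.54. Rarb is a known target of retinoid agonists such as TTNPB, and the part of TTNPB in its level was not tested. Bmp2, a signal that induces Tbx2 and Tbx3 in the atrioventricular canal, rose by 1.91 (limma adjusted p = 0.00131), while Bmp4 fell by 3.36 (limma adjusted p = 1.14e-06).

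Among the other T-box genes 5 of 14 were tested, and they did not share 1 pattern. CiCM against MEF gave 2 higher and 0 lower (median 1.62), CM against MEF 2 higher and 1 lower (median -0.38), and CiCM against CM 2 higher and 2 lower (median 0.50). Tbx15, a factor of skeletal and limb mesenchyme, was at 10.25 in MEF, 11.87 in CiCM and 5.93 in CM, in the same order of kinds as Shox2. Tbx20, a factor of working muscle, rose by 1.71 in CiCM (limma adjusted p = 0.00569) from a dim 3.62 to a dim 5.33, and stood at 11.77 in CM. The mean over its probe sets gave -0.011 for CiCM minus MEF. Tbx5, which drives fast conduction, was dim in MEF and CiCM and at 8.95 in CM. Of 6 tested HCN partners, 2 rose and 2 fell in CiCM against MEF (median 0.14), with Cav3 (8.22), the muscle caveolin, highest and the channel regulator Lrmp (-1.44) lowest. CM against MEF gave 2 higher and 1 lower (median 0.50), and CiCM against CM 0 higher and 1 lower (median 0.52), or 4 higher and 1 lower with arrays levelled on hybridisation controls.

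Profiles over the 9 arrays were compared after centring each gene on its own mean, and likeness was the mean absolute difference between 2 profiles. For Tbx3 the closest tested genes were Axin2 (0.15), a target and brake of Wnt signalling, Flnc (0.22), the muscle filamin, and Sema3b (0.22). Axin2 read 6.58 in MEF, 8.73 in CiCM and 7.54 in CM by group mean. For Tbx2 the closest were Dcaf6 (0.13), Tinagl1 (0.17) and Sema6c (0.18). For Shox2 they were Aebp1 (0.26), Mmp3 (0.28) and Pgpep1l (0.30). Isl1 lay closest to Gatm, Minar1 and Rassf7, each at 0.34, and Hcn2 to Grrp1 (0.24), Pdzd2 (0.28) and Hecw2 (0.30). No tested gene lay within 0.25 of Shox2 or Isl1, while 59 lay within that distance of Tbx2 and 10 of Tbx3. This distance tends to be larger for genes with larger differences or spread, so these counts do not set Shox2 and Isl1 apart in shape. The named neighbours correlated with Shox2 at 0.982 to 0.983, with Isl1 at 0.937 to 0.964 and with Tbx2 at 0.937 to 0.970 (Pearson). These are descriptions over 9 arrays that fall into 3 kinds of sample.

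Most of the 6 genes varied more between replicates than the median tested gene. That median covers genes at all signal levels, and genes of like signal were not compared. The median SD over all tested genes came to 0.11 for MEF, 0.16 for CiCM and 0.24 for CM, and 5, 5 and 6 of the 6 measured genes lay above it. Exceptions were Shox2 in MEF, with an SD of 0.01, and Isl1 in CiCM, with 0.09. The widest spreads were those of Isl1 in MEF (0.82), Hcn2 in CiCM (0.64) and Shox2 in CM (1.65).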

How the data were processed

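RNA from 3 samples each of MEF, CiCM and CM was amplified with a 3' kit, labelled with biotin and hybridised to 1-colour Affymetrix arrays, per the labels' protocols. The authors deposited 1 table of log2 signals. The software was MAS5, per the submitters' processing notes, with the version not stated. The labels do not give the scale. Turned back to linear signals, the deposited log2 values had a mean of 500.003 on each array once 2% was trimmed from either end, as MAS5 scaling leaves it. Detection calls and scan batches were not analysed here, and precision is limited by the small number of arrays. The genome build is not given in the sources used here.

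Of the probe sets, 34945 had 1 gene symbol in GEO's platform annotation, 932 several, 9160 none and 64 were controls. Each of 18193 genes was represented by its brightest probe set with 1 symbol, and 5634 with no group mean at or above 6.58 were left out. Differences were tested by limma 3.58.1 under R 4.3.3, using lmFit and then eBayes with its trend option, 2-sided, over all 9 arrays at once, with Benjamini-Hochberg adjustment over the 12559 genes, or over all 45037 probe sets where single probe sets are given. An exact permutation test of 3 against 3 cannot go below p = 0.1 and was not used. Data were simulated with the spread pooled over all 3 kinds of sample, and 200 of 12559 genes were changed in CiCM. In CiCM against MEF, 74.8% of genes changed by 1.5 and 84.6% of those changed by 2 were called. Of the calls 2.92% were false. The data gave 2987 calls in that comparison, so the share of false calls there can differ.

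The 7 genes, the other gene lists and the marker lists were chosen with earlier results of these data known. All probe sets of the 7 genes are given; of each list, the counts, the median and at most 4 called genes with the largest differences are given, plus genes that a description turns on (among them Nppa, Gja5, Gja1, Hcn3, Irx3, Sln and Myl7). Cacna1c, Cacna1g, Adcy6, Igfbp5, Id2 and the single markers were named after their values were seen. The 4 promoter motifs were also chosen after seeing the data. Some items are not reported here. Alternatives were other added constants, filters, scalings, probe set rules and fits, the replicate block, and leaving out each array.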

Additional observations from a re-analysis of the deposited data

How the results depend on the processing

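The counts of called genes were 3, 3 and 4 of the 6 measured genes for CiCM against MEF, CM against MEF and CiCM against CM. Leaving out 1 array at a time gave 3 to 4, 2 to 5 and 3 to 4. CiCM against MEF fell to 1 with the largest of 3 constants added to the linear signals (4 times 32), where Tbx2 was at 0.65 and Isl1 at 0.80, and to 1 with the filter at the 75th percentile (8.91), which left Tbx2, Isl1 and Hcn2 untested. That filter left 2 in CiCM against CM. The mean over probe sets gave 2, 4 and 3, since the mean of the 5 Tbx3 probe sets was under 6.58 in every kind of sample and Tbx3 was not tested. CM against MEF rose to 5 with every probe set tested on its own and to 5 without a minimum difference. Tbx3 turned to -0.23 in CM against MEF on 1448029_at, and to -1.80, -1.21 and -0.33 in CiCM against CM on the dim 1439567_at, 1444594_at and 1445757_at. Tbx20 turned to -0.011 in CiCM against MEF as a mean over its probe sets. The cause was not tested. The constant of 32, with and without the filter, was chosen after seeing the data.

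Isl1 in CM against MEF was called under quantile normalization (-1.59), median centring (-1.68), levelling on hybridisation controls (-2.11), the mean over probe sets (-2.43), no variance trend, and without MEF replicate 1 or CM replicate 2. Tbx18 in CM against MEF was called with median centring (-1.15), levelling (-1.59) and the mean over probe sets (-1.01). Centring moved all differences by -0.06, -0.37 and 0.31 in the order of comparisons above, and levelling by -0.23, -0.80 and 0.58. Under levelling 1132 genes were called higher and 2068 lower in CiCM against MEF, 1551 and 5483 in CM against MEF, and 4023 and 1377 in CiCM against CM, against 1451 and 1536, 2779 and 2736, and 2075 and 2387 in the deposited scale; with centring CM against MEF gave 2094 and 3879. With that largest constant CiCM against MEF gave 966 and 934, and without a minimum difference 3043 and 3486. Replicate numbers gave no sign of pairing: same-numbered arrays correlated at -0.02 to 0.07 in their deviations from the group means. With 3 arrays of each kind this cannot show that the samples were unpaired. With the replicate number as a block the counts were 3, 3 and 4, with no call of the 6 genes changed. Of 441 values of the 6 genes under alternatives, 394 kept their direction and call, 16 lost the call, 23 gained one, 4 reversed and 4, all of Hcn2 in CiCM against MEF, changed sign without a call. Signals under 6.58 limit Isl1 and Hcn2 most.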
